A study of Sus scrofa with 8 samples.

Results

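The array entries described here are those of miR-371 and of the other microRNAs (miRNAs) named for their expression in embryonic stem cells. They were chosen by name alone, as every non-control entry numbered miR-371, miR-372, miR-373, miR-302 or miR-367 in any species, letter or strand. This gave 8 of the 686 targets: ssc-miR-371-5p, designed on the pig sequence, the human-named hsa-miR-302a-3p, hsa-miR-302b-3p, hsa-miR-302c-3p, hsa-miR-302d-3p, hsa-miR-367-3p and hsa-miR-367-5p, and the mouse-named mmu-miR-302d-5p. Among the 686 targets there was no entry numbered miR-372 or miR-373. Of the 8, ssc-miR-371-5p was known beforehand to differ between the groups in these same data. That difference is part of what led to its choice, so it is given as a description with no test.

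Luteal tissue was taken post mortem from crossbred gilts of 6 to 8 months from a single commercial herd, on day 14 of pregnancy (4 samples) or day 14 of the estrous cycle (4 samples). The pregnant gilts had been inseminated 12 and 24 hours after their second estrus was detected, and the cyclic gilts had not been inseminated. The corpus luteum is the progesterone-secreting gland that forms from the ovulated follicle, and day 14 lies near the time when the gland either regresses or is kept for pregnancy. Each sample, which the labels call a biological replicate, was hybridised alone to a 1-colour Agilent miRNA array.

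In human cells miR-371 is made from the same cluster as miR-372 and miR-373, and mouse embryonic stem cells carry a related cluster that begins with miR-290. The miR-302 and miR-367 genes form a separate cluster that is switched on by the pluripotency factors OCT4 and SOX2. The main strands of miR-302, miR-372 and miR-373 share a seed, the short 5′ stretch that picks target mRNAs, and restrain inhibitors of the cell cycle. The 5p strand of miR-371 and the main strand of miR-367 carry other seeds. Both clusters are best known from embryonic stem cells, early embryos and germ cell tumours, and are switched off in most adult tissues.

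In the RefSeq gene table of the pig assembly Sscrofa11.1, the precursor gene of ssc-miR-371-5p, MIR371, is listed as an miRNA gene between NLRP12, which encodes an inflammation-dampening receptor protein, and LOC100626505. The homeobox gene DPRX follows on the same side as LOC100626505, and 9 listed genes lie between NLRP12 and DPRX. MIR371 is the 1 miRNA gene among these 9.

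On these arrays 22.8% to 28.8% of the non-control spots were well above background and 0 were saturated. The 75th percentile intensity of targets detected on every array, used to scale the arrays, was 189 to 316 scanner units. Pregnant replicates 1 and 2 shared slide 1, cyclic replicates 1 and 2 slide 2, and replicates 3 and 4 of both groups slide 3. Slides 2 and 3 were scanned on the same day, which differed from that of slide 1. Cyclic replicate 1 stood apart from its group, with a mean correlation of 0.960 with the other cyclic arrays over the 212 targets tested, against 0.972 to 0.978 for the other 3 cyclic arrays. The gonad-enriched miR-202 gave a signal, its 3p strand on 8 arrays and its 5p strand on 5, while the protein markers of luteal cells were not measured.

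Only ssc-miR-371-5p among the 8 entries was detected in luteal tissue. A target was counted as detected on an array when, for any of its probes, at least 0.5 of the spots were well above background by the scanner software. By this measure ssc-miR-371-5p was detected on 7 of 8 arrays, 3 of the pregnant and 4 of the cyclic ones. The other 7 entries were detected on 0 arrays. They had 140 spots on each array, and of these 1120 spots over all arrays a single spot, of mmu-miR-302d-5p on cyclic replicate 3, was well above background, and it was marked as an outlier among its replicate spots.

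The 7 undetected entries gave no signal above the range of the negative controls in either group. Their 21 probes gave 168 mean intensities over the 8 arrays, from −2.77 to 1.89 scanner units with a median of −0.436, and 120 of these means were below 0. On pregnant arrays the highest of the 21 probe means was 0.821, 1.34, 1.89 and 1.30 for replicates 1 to 4. On cyclic arrays it was 0.0974, 1.12, 1.88 and 1.66. For comparison, the 99th percentile of the 434 negative control spots was 6.29 to 8.01 on pregnant arrays and 4.79 to 8.28 on cyclic arrays. That percentile is over single spots, whereas the values of the 7 entries are probe means. The median control spot read 0.437 to 1.29 over the 8 arrays. On every array it was above the median of the 21 probe means, which was −1.19 to −0.127.

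The miR-302 entries were therefore below detection at this signal, and no difference between the groups can be read from them. hsa-miR-302a-3p, a main strand of the miR-302 cluster, averaged −0.378 ± 0.196 scanner units on pregnant arrays and −0.0311 ± 0.846 on cyclic arrays (SD, n = 4 each, mean of its probes). hsa-miR-302b-3p averaged −0.0824 ± 0.400 on pregnant arrays and −0.376 ± 0.875 on cyclic arrays. hsa-miR-302c-3p, the highest of the 7 in the pregnant group, stood at 0.349 ± 0.516 there and at −0.0927 ± 0.462 on cyclic arrays.

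The remaining undetected entries behaved in the same manner, with group means below 0 and ranges that overlapped. hsa-miR-302d-3p averaged −0.517 ± 0.328 on pregnant arrays and −0.777 ± 0.338 on cyclic arrays. mmu-miR-302d-5p, the opposite strand of that hairpin, averaged −0.622 ± 0.405 on pregnant arrays and −1.06 ± 0.506 on cyclic arrays. hsa-miR-367-3p, the main strand of the miRNA that closes the miR-302 cluster, averaged −0.942 ± 0.506 on pregnant arrays and −0.594 ± 0.824 on cyclic arrays, and its partner hsa-miR-367-5p −0.923 ± 0.444 and −0.713 ± 0.173 in the same groups.

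Absence from detection was common among entries of this origin. Of the 271 human-named and mouse-named targets on the array 215 (79.3%) were detected on 0 arrays, as were 227 of the 407 pig-named targets (55.8%). Probes made to a human or mouse sequence may differ from the pig miRNA in sequence, and how well these 7 probes capture the pig strands was not tested.

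**Figure D1:**
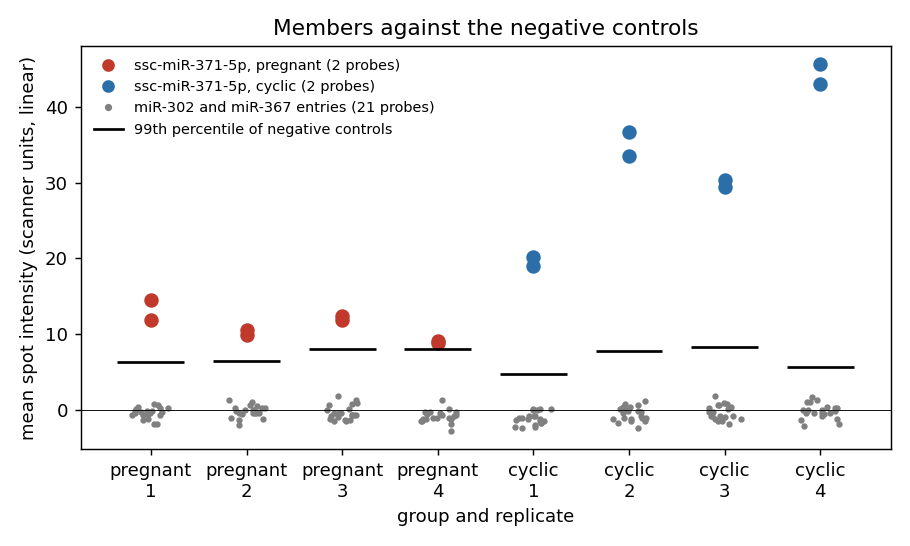
Mean spot intensity (linear scanner units) of every probe of the 8 entries on each of the 8 arrays, pregnant arrays on the left and cyclic arrays on the right; coloured points are the 2 probes of ssc-miR-371-5p, grey points the 21 probes of the miR-302 and miR-367 entries, and the black bar the 99th percentile of negative control spots. All grey points lie between −2.77 and 1.89, below every bar, and all coloured points lie above the bar of their array.

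ssc-miR-371-5p was dim in both groups and lower in pregnancy. Its brighter probe gave mean intensities of 14.5, 10.6, 12.4 and 9.07 scanner units on pregnant replicates 1 to 4. On cyclic replicates 1 to 4 the same probe gave 20.2, 36.7, 29.5 and 45.6. Every pregnant value was below every cyclic value before any scaling, the group means being 11.6 ± 2.34 and 33.0 ± 10.8 in that order (SD, n = 4 each).

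The signal also stood at different distances from background in the groups. On pregnant arrays the brighter probe was 1.13 to 2.30 times the 99th percentile of the negative controls. On cyclic arrays it was 3.56 to 8.04 times that percentile. With its 2 probes together, 56 of 80 spots were well above background on pregnant arrays and 80 of 80 on cyclic arrays. Pregnant replicate 4 fell short of detection, with 2 of 10 spots of each probe above background. That array also had the lowest share of non-control spots above background (22.8%). After the scaling given below, its log2 signal (−4.38) was above those of pregnant replicates 2 and 3 (−4.48 and −4.61).

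After scaling, the log2 signal of ssc-miR-371-5p was −4.25, −4.48, −4.61 and −4.38 on pregnant replicates 1 to 4. It was −3.50, −3.02, −2.71 and −2.79 on cyclic replicates 1 to 4. The groups did not overlap, and the highest pregnant array, replicate 1, lay 0.75 below the lowest cyclic array, also replicate 1. Within the pregnant group the arrays spanned 0.36, and within the cyclic group 0.79.

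On this log2 scale the pregnant arrays averaged −4.43 ± 0.15 and the cyclic arrays −3.01 ± 0.35 (SD, n = 4 each). The difference of pregnant minus cyclic was −1.42 ± 0.20 (SE from limma's fit), which puts pregnancy at 0.373 of the cyclic level. Because the pregnant arrays lay only 0.25 to 0.61 above the floor at which low signals were set (−4.86), the size of the fold rests on values close to background. In whole tissue, fewer cells that hold this miRNA and less of it per cell cannot be told apart.

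**Figure D2:**
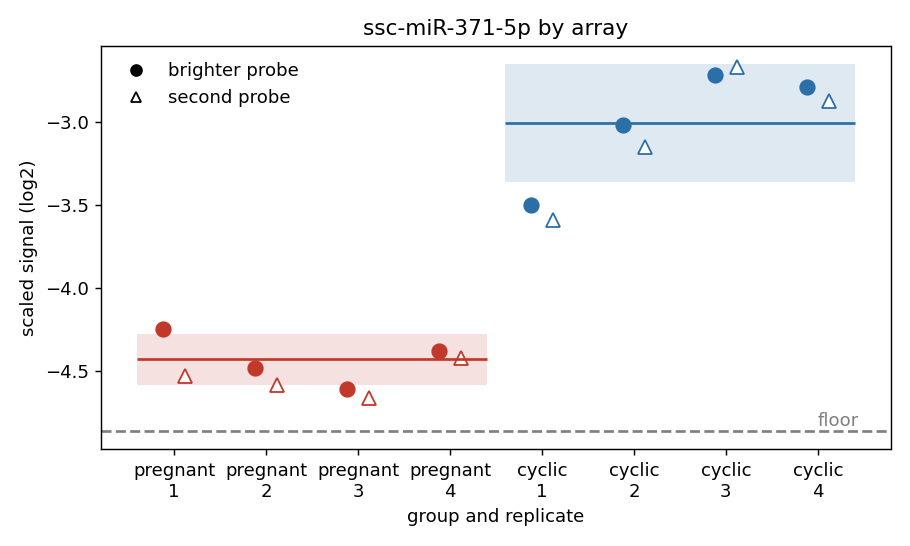
Scaled log2 signal of ssc-miR-371-5p on each array, with filled circles for the brighter probe and open triangles for the second probe; lines and bands show the mean and SD of the brighter probe over the 4 arrays of a group, and the dashed line the floor of −4.86. The 4 pregnant arrays lie between −4.66 and −4.25 over both probes, and the 4 cyclic arrays between −3.59 and −2.67.

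The difference was one of many between the groups in the reported fit, although their number depended on the setting. In the limma test with Benjamini-Hochberg adjustment at 0.05 over all 212 targets detected on at least 4 arrays, 13 targets (6.13%) were called lower in pregnancy, and ssc-miR-371-5p, the 1 tested member, was among them. This call is part of what led to its choice and carries no weight here. Over both directions 24 targets were called as reported, and 2 with scan day as a block. In 15 targets (7.08%) all 4 pregnant arrays lay below all 4 cyclic arrays, as they did for ssc-miR-371-5p. By size its difference was the third most negative of the 212, behind hsa-miR-223-3p and mmu-miR-21a-3p. Over all 212 tested targets the median difference was 0.00.

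Both probes of ssc-miR-371-5p, each present as 10 spots, gave the same picture. The second probe read 11.9, 9.86, 11.9 and 8.81 scanner units on pregnant replicates 1 to 4, against 18.97, 33.5, 30.4 and 43.1 on cyclic replicates 1 to 4. On the scale of the brighter probe its difference was −1.48. The 2 probes differed by −0.04 to 0.28 on the log2 scale over the 8 arrays, with a Pearson r of 0.994 between them, as a description of probes that read the same RNA on the same arrays.

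Relative to the mean, the spread between replicate spots was wider where the signal was dimmer. For the brighter probe the coefficient of variation between spots was 11.7% to 25.2% on pregnant arrays and 4.49% to 7.47% on cyclic arrays. In scanner units its SD between spots was similar, 1.45 to 2.93 on pregnant arrays and 0.908 to 2.74 on cyclic arrays. Single spots of the 2 probes, after outliers were left out, ran from 5.64 to 19.2 over the 80 spots of the pregnant arrays. On the cyclic arrays 74 spots remained, and the lowest read 15.4, on replicate 1. In all, 5 pregnant spots exceeded the lowest cyclic spot, and 6 cyclic spots were below the highest pregnant spot.

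The cyclic arrays were not uniform across slides. The 2 cyclic arrays of slide 2 averaged −3.26 on the log2 scale, and the 2 of slide 3 averaged −2.75. Among the pregnant arrays, slide 1 averaged −4.36 and slide 3 averaged −4.49. Within slide 3, which held both groups, the difference of pregnant minus cyclic was −1.74 (n = 2 each). Slides 1 and 2 held 1 group each, so they gave no difference of their own. Among the arrays scanned together with slide 3, pregnant replicates 3 and 4 and all 4 cyclic ones, the difference was −1.49. Without cyclic replicate 1, the array that stood apart, it was −1.59.

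The authors' deposited table, which holds log2 values centred for each spot, ran the same way. Averaged over the spots of the brighter probe, it gave ssc-miR-371-5p values of −0.42, −0.69, −0.61 and −0.60 on pregnant replicates 1 to 4. On cyclic replicates 1 to 4 the authors' deposited table gave 0.29, 0.71, 0.92 and 0.89. The columns of cyclic replicates 2 and 4 held 3 cells too large for a log2 scale, which were read as missing, and 0 of these were spots of ssc-miR-371-5p. The groups were apart there too, and the scaling between arrays behind that table is unknown.

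The choice of processing changed the size of the difference more than its direction. It was negative in all 29 other settings that gave a value, although some of these cannot change the estimate by construction. It lay furthest from the reported value with normexp background correction, at −0.35. That method adds an offset of 50 scanner units, more than any mean intensity of ssc-miR-371-5p, to every spot.

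**Figure D3:**
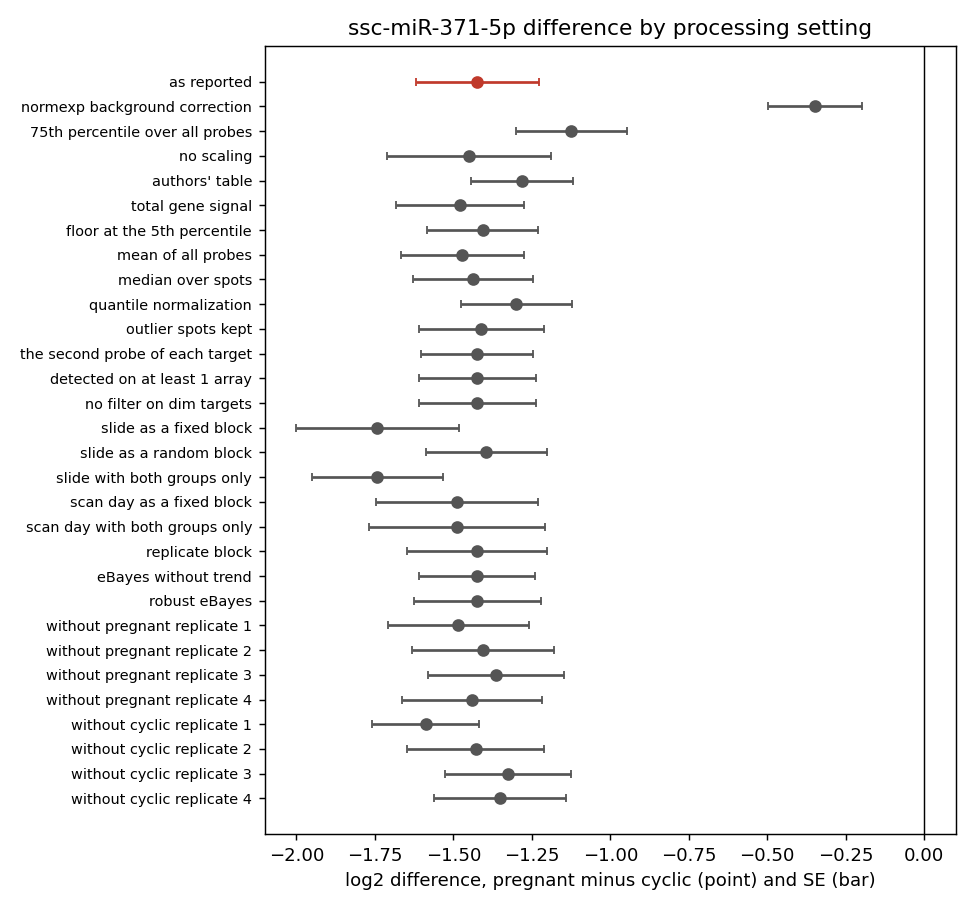
Log2 difference of ssc-miR-371-5p, pregnant minus cyclic, as reported (red) and in 29 other processing settings (grey), with SE bars; the vertical line marks 0. All points lie left of 0, with normexp background correction at −0.35, slide as a fixed block and the slide with both groups at −1.74, and the other settings between −1.59 and −1.12.

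The targets whose profile over the 8 arrays was most like that of ssc-miR-371-5p were found by Pearson r among the 211 other tested targets. Likeness is given as a description, since the arrays share labelling, scaling and slides, and since a target that separates the groups in the same direction must score high. The highest r belonged to ssc-miR-9840-3p (0.972), followed by ssc-miR-345-3p (0.962), ssc-miR-9850-5p (0.959), mmu-miR-21a-3p (0.953) and ssc-miR-4338 (0.925). All 5 of them were called lower in pregnancy in the limma test, which called 6.13% of the tested targets in that direction. Their calls held whichever of the 8 arrays was dropped for ssc-miR-9840-3p, ssc-miR-345-3p and mmu-miR-21a-3p, in 3 of these 8 refits for ssc-miR-9850-5p and in 1 for ssc-miR-4338. With scan day as a block, ssc-miR-345-3p kept its call (adjusted p = 0.0144 in limma), and the other 4 did not pass (0.0613 to 0.0872). On the scan day that held both groups the same 1 target passed (0.0337) and the other 4 stood at 0.0643 to 0.125. Of the 22 settings that dropped no single array, 16 called ssc-miR-9850-5p and 11 called ssc-miR-4338, against 19 to 20 for the other 3. Over the 211 targets the median r was 0.02.

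Their own values show how close the profiles ran. ssc-miR-9840-3p read −3.10, −3.00, −3.16 and −3.17 (log2) on pregnant replicates 1 to 4, against −2.52, −1.85, −1.28 and −1.29 on cyclic replicates 1 to 4. Like ssc-miR-371-5p, it was lowest among the cyclic arrays on replicate 1 and near its top on replicates 3 and 4. ssc-miR-345-3p read −3.87, −3.93, −4.21 and −4.02 on pregnant replicates 1 to 4, against −2.82, −2.78, −2.31 and −2.87 on cyclic replicates 1 to 4. In contrast to ssc-miR-371-5p its cyclic replicate 1 was not the lowest of the cyclic arrays.

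mmu-miR-21a-3p, the passenger strand of the abundant miR-21, had the widest swing of these 5. It averaged −2.98 ± 0.20 on pregnant arrays and −0.80 ± 1.05 on cyclic arrays (SD, n = 4 each), the wide cyclic spread coming from replicate 1 at −2.36. ssc-miR-9850-5p averaged −2.65 ± 0.15 on pregnant arrays and −1.98 ± 0.19 on cyclic arrays, and ssc-miR-4338 −3.29 ± 0.25 and −2.22 ± 0.58 in the same groups. When the 2 arrays farthest from the median of ssc-miR-371-5p, cyclic replicates 3 and 4, were left out, r of these 5 targets was 0.872 to 0.969.

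The lowest r, that is the most opposite profiles, belonged to ssc-miR-424-3p (−0.947), ssc-miR-542-5p (−0.925) and ssc-miR-423-5p (−0.914). The miR-424 and miR-542 strands come from an X-linked locus whose miR-424 restrains the cell cycle. ssc-miR-542-5p averaged −1.59 ± 0.27 on pregnant arrays and −2.62 ± 0.33 on cyclic arrays (SD, n = 4 each). ssc-miR-424-3p was at the floor on cyclic replicates 2, 3 and 4.

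**Figure D4:**
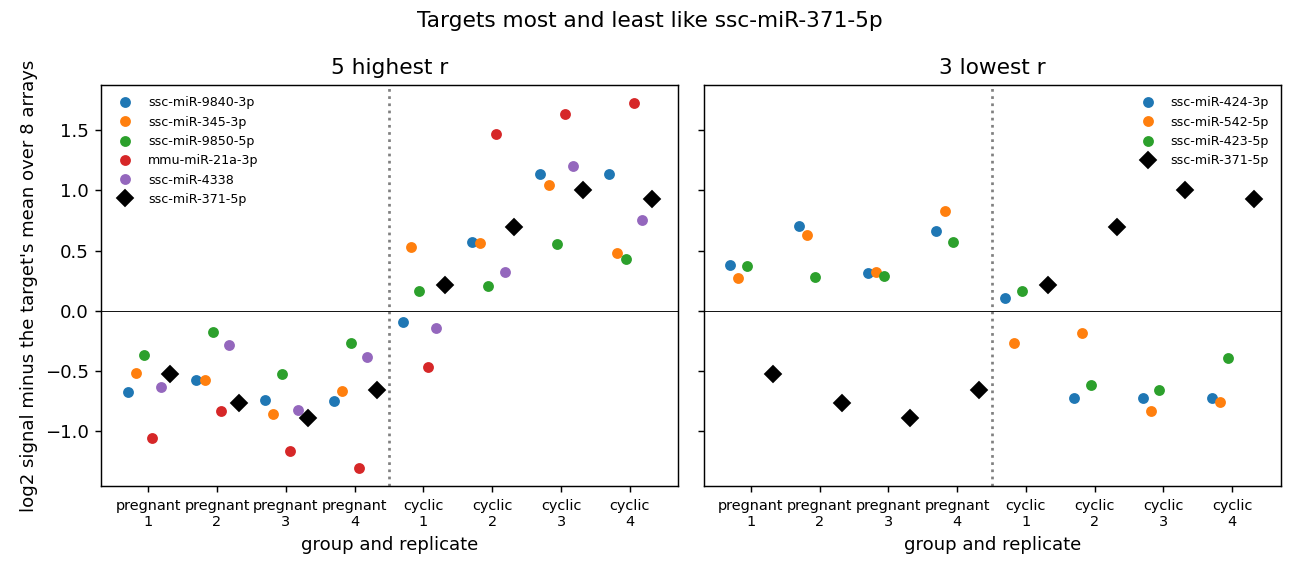
Log2 signal of each target minus its own mean over the 8 arrays, for ssc-miR-371-5p (black diamonds) with the 5 targets of highest Pearson r (left panel) and the 3 of lowest r (right panel); pregnant arrays are left of the dotted line and cyclic arrays right of it. In the left panel the pregnant arrays lie below 0 for all 6 targets, and in the right panel the 3 targets lie on the opposite side of 0 from ssc-miR-371-5p on every pregnant array.

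With the group means taken out, so that only the spread within groups was compared, the order changed. ssc-miR-9840-3p again came first (r = 0.904 of the deviations) and mmu-miR-21a-3p last of the 5 (0.858), so 2 targets were in both sets of 5. Between them came ssc-miR-199b-5p (0.897), known from fibroblasts, ssc-miR-132 (0.873), inducible by luteinizing hormone, and ssc-miR-335 (0.864). ssc-miR-132 was called lower in pregnancy (limma adjusted p = 0.0443), whereas ssc-miR-199b-5p (0.424) and ssc-miR-335 (0.395) did not pass. Without the 2 arrays farthest from the median of ssc-miR-371-5p, r of the profiles was 0.768 for ssc-miR-132 (0.889 over all arrays), −0.0085 for ssc-miR-199b-5p (0.615) and 0.058 for ssc-miR-335 (0.624). For ssc-miR-199b-5p and ssc-miR-335 the r of the profiles thus rests on those arrays, cyclic replicates 3 and 4. The r of deviations was not recomputed without them. For these 3 targets the lowest cyclic array was again replicate 1. On that array ssc-miR-199b-5p read −3.31, ssc-miR-132 read −1.004 and ssc-miR-335 read −4.24.

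Markers of other cell types were set beside ssc-miR-371-5p, because leukocytes enter the regressing gland. Of 16 leukocyte entries (miR-223, miR-142, miR-150, miR-342, miR-146 and miR-155) 8 were detected on 0 arrays and 8 were tested. Of the tested entries ssc-miR-155-5p fell in pregnancy (−0.96 ± 0.25 SE, limma adjusted p = 0.0323), 0 rose and 7 did not pass, where 6.13% of all tested targets were called lower. Among those 7 was bta-miR-155, a second miR-155 entry, with a smaller difference (−0.34 ± 0.20 SE, limma adjusted p = 0.270). The 8 had a median difference of −0.22 (0.08 with scaling over all probes, where all tested targets had a median of 0.30). Under 22 other settings ssc-miR-155-5p was called 10 times, and when each of the 8 arrays was dropped in turn, 1 time. The summed scaled signal of the 16 entries was 1.28 to 1.50 on pregnant arrays and 1.20 to 5.50 on cyclic arrays.

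The defining neutrophil and monocyte marker hsa-miR-223-3p had the most negative difference of all tested targets (−2.29 ± 0.76 SE). It did not pass limma's test (adjusted p = 0.0767). Its groups overlapped, unlike those of ssc-miR-371-5p, through cyclic replicate 1 alone, the array that stood apart. hsa-miR-223-3p read −2.65, −2.84, −2.68 and −2.74 (log2) on pregnant replicates 1 to 4, against −3.16, −0.33, −0.02 and 1.74 on cyclic replicates 1 to 4. On cyclic replicate 1 it was thus below every pregnant array, whereas ssc-miR-371-5p on that array (−3.50) was above every pregnant array. The part of leukocytes in the difference of ssc-miR-371-5p was not tested.

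The fibroblast entries (miR-199 and miR-214, 5 tested) summed to 3.89 to 4.35 on pregnant arrays and 3.61 to 8.52 on cyclic arrays. In limma's test 0 of these 5 passed, against 11.3% of all tested targets, and 1 had an unadjusted p under 0.05, against 34.4% of all (73 of 212). Their median difference was −0.45, beside 0.00 for all tested targets. With scaling over all probes it was −0.15, beside 0.30. That scaling shifts all targets above the floor alike, so the distance from the median of all targets could not change. Endothelial entries (miR-126, miR-221 and miR-222, 4 tested) summed to 7.59 to 9.47 on pregnant arrays and 6.80 to 7.98 on cyclic arrays. Of these 4, 0 passed limma's test or had an unadjusted p under 0.05, beside the same shares of all targets, and their median difference was 0.12 (0.42 with scaling over all probes, with 0 of 4 negative). The erythroid sums, led by ssc-miR-451, ran from 1.36 to 6.26 on pregnant arrays and from 1.37 to 7.29 on cyclic arrays. Smooth muscle sums ran from 1.28 to 1.70 on pregnant arrays and from 1.25 to 1.87 on cyclic arrays. Of 10 epithelial entries 8 were detected on 0 arrays, and neither of the other 2 passed limma's test.

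The entries of other embryo and trophoblast miRNAs, all from a primate cluster, were below detection too. The array carried 8 entries of the primate cluster on the same chromosome arm as human miR-371, all with human names: miR-1323, miR-516b-5p, miR-517-5p, miR-517a-3p, miR-517c-3p, miR-518a-5p, miR-518c-5p and miR-525-5p. All 8 were detected on 0 arrays and lay at the floor throughout, as 79.3% of the human-named and mouse-named targets were detected on 0 arrays. These miRNAs belong to primates, where the placenta expresses them, so their lack of signal tells nothing about the pig gland.

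Relatives of miR-302 that adult tissues use, from the miR-17 and miR-106 clusters, were in contrast mostly detected. They were listed because they share a core of the miR-302 seed near their 5′ end, and their full seeds need not be the same. Of 9 entries 8 were detected on all 8 arrays and tested, and 0 passed the limma test (adjusted p from 0.234 to 0.767), against 11.3% of all tested targets called in either direction. Likewise 0 had an unadjusted p under 0.05, against 34.4% of all tested targets. Their median difference was −0.22, with 7 of 8 negative, beside 0.00 over all tested targets. With scaling over all probes, which raised the median of all tested targets to 0.30, their median was 0.08 and 1 of 8 was negative. ssc-miR-20a differed by −0.34 ± 0.19 (SE), ssc-miR-17-5p by −0.19 ± 0.14, hsa-miR-106b-5p by −0.07 ± 0.14 and hsa-miR-93-5p by 0.11 ± 0.13. The list also holds ssc-miR-17-3p (−0.25 ± 0.19), an opposite strand that does not carry the core shared with miR-302. Another such strand, hsa-miR-106b-3p, was detected on 0 arrays. Mean log2 signal over the 8 arrays was −3.84 for ssc-miR-106a, −3.70 for ssc-miR-20b and −3.94 for ssc-miR-17-3p. These lay between the pregnant and cyclic means of ssc-miR-371-5p (−4.43 and −3.01). mmu-miR-20b-5p, a second miR-20b entry, read −0.88.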

How the data were processed

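Total RNA of 8 luteal samples was measured on 1-colour arrays, 100 ng each with an integrity number above 8, per the labels. The deposited scanner files hold spot intensity on a linear scale, background-subtracted and detrended by Agilent Feature Extraction (10.7 in the submitters' processing notes, 10.7.3.1 per the file headers). A value table that the authors deposited was found to be on a log2 scale and centred per spot (slopes 0.761 to 0.999 and r 0.781 to 0.962 against log2 intensity over 1145 spots above 50 units; column medians of −0.0003, 0.0001, −0.0001 and 0.0318 for pregnant and 0.0107, −0.0003, 0.0007 and −0.0002 for cyclic replicates 1 to 4). The columns of cyclic replicates 2 and 4 that the authors deposited are recorded as a score because 3 of their cells exceed 100. With these cells read as missing, both columns were used as log2 values like the other 6.

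Control spots were left out. Outlier spots were left out of the intensities but kept in the counts of spots above background and in detection. Spots of a probe were averaged, divided by the array's 75th percentile over targets detected on all arrays, set to at least the 1st percentile of detected probes and log2-transformed. The brightest probe stood for a target. limma 3.58.1 (eBayes with trend, R 4.3.3) was fitted to the 212 targets detected on at least 4 arrays, with Benjamini-Hochberg adjustment, and tested on simulated data. Figures were drawn with matplotlib 3.10.9. Arrays number 4 per group, which limits precision.

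Members, lists and alternatives were chosen with earlier results of these data known. Named targets were all members, the 5 highest and 3 lowest by r, the 5 highest by r of deviations, and of each list those that passed and up to 4 of the brightest; other list members were named after their values were seen.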

Additional observations from a re-analysis of the deposited data

How the results depend on the processing

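ssc-miR-371-5p is dim, so background handling limits its fold. Its difference stayed within 1 pooled SD (0.27) of −1.42 in 17 of 21 settings (−1.49 to −1.28), 2 of them, the second probe and outlier spots kept, chosen after seeing the data. The settings that widened the target set, added the replicate block or altered eBayes cannot move the estimate, which stayed at −1.42. The 2 scan-day settings are also a single contrast, at −1.49. The difference was −0.35 with normexp and −1.12 with the 75th percentile over all probes (−1.43 relative to the median shift of 0.30). It was −1.74 with slide as a fixed block and within slide 3, which are the same contrast. Leaving out 1 array gave −1.59 (without cyclic replicate 1) to −1.33 (without cyclic replicate 3). With detection required on all 8 arrays, ssc-miR-371-5p was not tested and 0 members counted as detected; the count of 1 held when a probe needed every spot or any spot above background.

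The number of targets called, 24, depended more on the setting: 11 with normexp, 62 with scaling over all probes (55 higher, 7 lower; 11 higher, 13 lower as reported), 9 without scaling, 10 with the total gene signal, 11 with the floor at the 5th percentile, 10 with the mean of all probes, 15 with quantile normalization (7 higher, 8 lower), 7 with the second probe, 11 with detection on at least 1 array, 11 with no filter (247 varying targets), 9 within slide 3, and 2 each with scan day as a block and on the 1 day with arrays of both groups. Leaving out 1 array gave 7 to 81 (81 without cyclic replicate 1; 7 without pregnant replicate 4 and without cyclic replicate 3). The causes were not tested.

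Replicate numbers gave no clear pairing of the arrays: same-numbered deviations correlated at −0.18 to 0.16, and 4 of 8 arrays correlated best with their own number. Each array had 4 possible partners in the other group, and no chance level was computed, so pairing was not settled. With the replicate block the difference was −1.42, which a balanced block cannot change, and 26 targets were called.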
